A study of Ovis aries with 18 samples.

Results

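The genes described here are ENSOARG00020005847 and ENSOARG00020013617, 2 of the 20477 genes listed in a sequencing survey of sheep skeletal muscle. They were picked by identifier because earlier results of these data had shown them high in longissimus lumborum (LL) and low in psoas major (PM) and soleus (SOL). The levels by muscle below are therefore a description. The study took the 3 muscles from 6 lambs and made 6 libraries of ribosomal RNA-depleted total RNA per muscle, 18 in all. By the labels, the groups differ only in the muscle. The labels name no treatment, genotype, breed or age. Library totals ran from 10216739 to 14747118 reads. One library, SOL 3, was looked at on its own. There, 11 genes reached 1.80% to 4.52% of the LL and PM mean. These genes were at 10 FPKM or more in LL and PM and under 1% of that level in the other 5 SOL libraries. The other SOL libraries were not screened in this way, so whether SOL 3 is unusual was not tested.

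LL is the long extensor of the back and loin and belongs to the epaxial muscles, which form from the dorsal part of the somites and are served by dorsal branches of the spinal nerves. PM, the tenderloin, flexes the hip, and SOL is a postural muscle of the lower hind limb rich in slow fibres in most mammals. PM and SOL are served by ventral branches, and limb muscles arise from precursors that migrate out of the somites. Muscles keep differences in fibre type, metabolism and regional identity genes into adult life. The table does not pair the identifiers with names or positions, so the roles of both genes are not given here. The labelled muscles could not be checked against named marker genes for the same reason.

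ENSOARG00020005847 was counted almost entirely in LL. Levels are in FPKM, reads scaled by gene length and by the counted reads of the library, which allows both genes to be set side by side. The gene length recovered from the values is 1401 bp. It stood at 19.0 FPKM in LL 1, 34.2 in LL 2, 29.7 in LL 3, 36.6 in LL 4, 42.2 in LL 5 and 20.8 in LL 6, which is 30.4 ± 9.10 FPKM (SD, n = 6). These values come from 313 to 721 reads per library, 3047 in all. Every LL library thus held the transcript, with LL 1 and LL 6 at the lower end.

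Outside LL, ENSOARG00020005847 was hardly counted. PM 2 held 1 read, worth 0.0519 FPKM, and the other 5 PM libraries held none. SOL 1 held 2 reads (0.114 FPKM), SOL 6 held 4 reads (0.220 FPKM), and the other 4 SOL libraries held none. A library with no read does not show absence: 3 reads, the limit that a count of 0 allows, would be 0.167 to 0.192 FPKM in the PM libraries without a read and 0.145 to 0.180 in the SOL libraries without one. The mean was 0.183% of the LL mean in SOL and 0.0285% in PM. Summed over libraries and divided by the library totals, LL held 563 times the reads of SOL, with an exact 95% interval of 258 to 1535 that covers counting error only.

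ENSOARG00020013617 was more abundant in LL and kept a measurable level elsewhere. Its recovered length is 3466 bp. It stood at 61.3 FPKM in LL 1, 77.6 in LL 2, 132.6 in LL 3, 114.6 in LL 4, 156.3 in LL 5 and 77.5 in LL 6, which is 103 ± 37.1 FPKM (SD, n = 6). The lowest LL library held 2499 reads and the highest 6615. LL 5 was the highest LL library and LL 1 the lowest for both genes. In LL, ENSOARG00020013617 ranked 641 and ENSOARG00020005847 ranked 2440 by mean level among 15852 genes with a read in that muscle.

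The residual level of ENSOARG00020013617 was present in all 12 libraries of PM and SOL. In PM it was 0.767 FPKM in PM 1, 3.13 in PM 2, 5.34 in PM 3, 0.903 in PM 4, 4.09 in PM 5 and 0.922 in PM 6. PM 1, PM 4 and PM 6 lay close together, and PM 2, PM 3 and PM 5 stood at 3.13 FPKM or more, and the muscle's mean of 2.53 ± 1.95 FPKM (SD, n = 6) fell between them. In SOL it was 1.68 FPKM in SOL 1, 5.46 in SOL 2, 1.60 in SOL 3, 1.84 in SOL 4, 2.07 in SOL 5 and 3.30 in SOL 6, with a mean of 2.66 ± 1.51 (SD, n = 6). SOL 2 was the highest library outside LL, and it did not reach the lowest LL library. Against the LL mean, single libraries reached 0.742% to 5.17% in PM and 1.55% to 5.29% in SOL. These values rest on 34 to 206 reads in PM and 73 to 240 reads in SOL, so they are well above the 3-read limit of 0.0587 to 0.0778 FPKM.

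**Figure D1:**
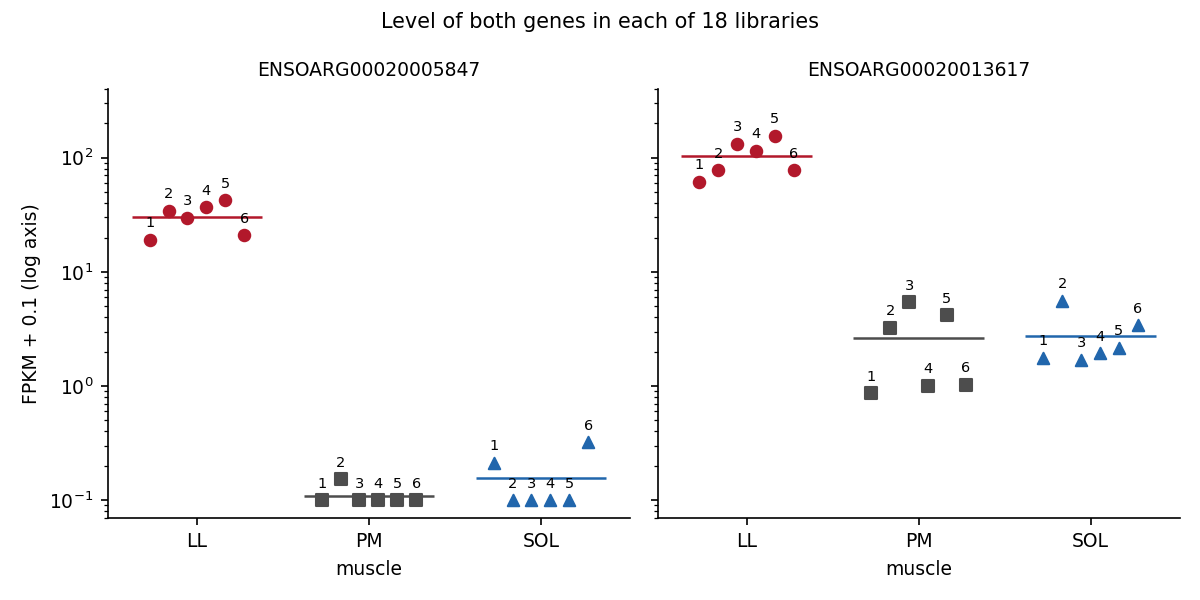
FPKM + 0.1 on a log axis (vertical) of ENSOARG00020005847 (left) and ENSOARG00020013617 (right) in each library of LL, PM and SOL (horizontal), numbered as in the labels; horizontal lines mark the mean FPKM of each muscle plus 0.1. LL libraries sit above every PM and SOL library for both genes, and PM and SOL libraries without a read of ENSOARG00020005847 lie at 0.1.

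On the log2(FPKM + 0.1) scale, LL exceeded PM by 8.09 (SE 0.40) for ENSOARG00020005847 and by 5.61 (SE 0.44) for ENSOARG00020013617. LL exceeded SOL by 7.73 (SE 0.40) and 5.29 (SE 0.44). The genes were chosen on these contrasts, so that both being called higher in LL was fixed by the choice, and nothing is read from it. For reference, limma called 0.551% of the 15434 genes tested higher in LL than in PM and 8.31% higher in LL than in SOL (adjusted p under 0.05). Every LL library lay above every PM library for 0.609% of genes and above every SOL library for 4.16%, again including both genes by choice. The share of 0.551%, or 85 genes, was not steady: 158 genes were called with the replicate block, 150 without LL 6, 54 without LL 5, and 56, 49, 53 and 52 without PM 1, PM 2, PM 4 and PM 6. Both comparisons use the same LL libraries. The size for ENSOARG00020005847 is set largely by the added 0.1: with 1 in its place the difference from PM was 4.91, and with 0.01 it was 11.07. In bulk muscle, fewer cells that make a transcript and less of it per cell cannot be told apart.

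Few genes shared this restriction. The pair was chosen by these muscle levels, so its own place follows from the choice. Of 6315 genes whose LL mean reached 10 FPKM, 40 had means in both PM and SOL under 50% of the LL mean, 3 had means under 20%, and 2, the pair described here, had means under 10%. ENSOARG00020013617, at 2.57% in the higher of the other muscles, was the less restricted of the pair. The next gene in this order stood at 270.2 FPKM in LL, 53.1 in PM and 8.01 in SOL, so its higher other muscle, PM, reached 19.7% of LL. The one after it reached 24.1%. No gene of this set lay between 2.57% and 19.7%. With the limit in LL lowered to 1 FPKM, 4 of 12291 genes were under 10% in both other muscles. All 4 were also under 5%, and 2 were under 1%, of which 1 belongs to the pair.

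**Figure D2:**
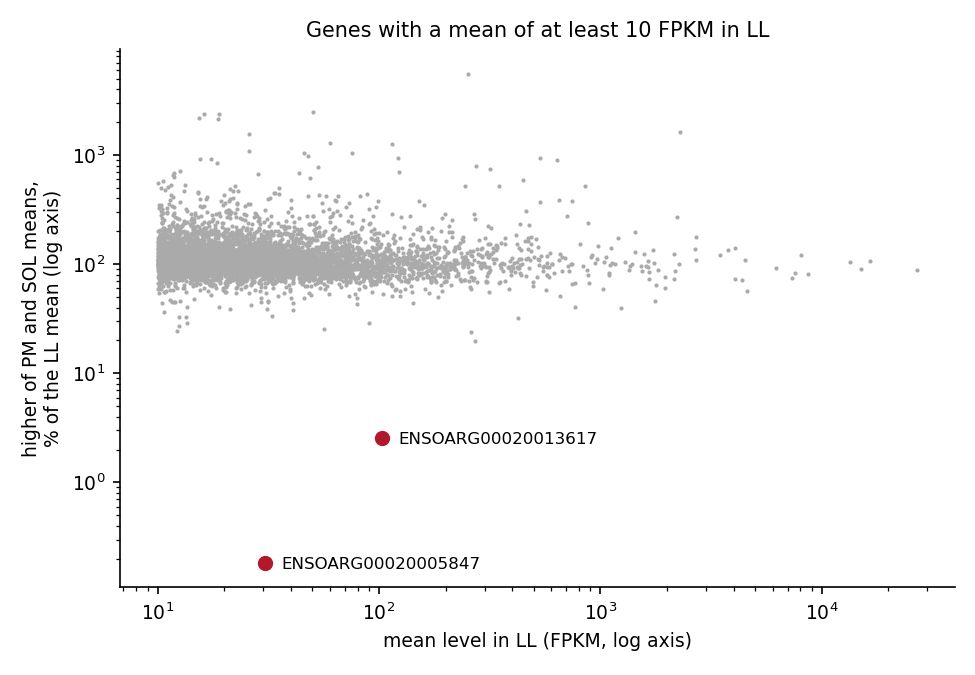
Each point is 1 of the 6315 genes whose LL mean reached 10 FPKM; the horizontal axis gives its LL mean in FPKM and the vertical axis the higher of its PM and SOL means as a percentage of the LL mean, both log axes. The 2 genes, in red at 0.183% and 2.57%, were chosen by these muscle levels. All others shown begin at 19.7%.

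The 2 muscles in which the genes were low did not differ beyond the spread of their libraries. For ENSOARG00020013617, SOL minus PM was 0.31 on the log2(FPKM + 0.1) scale (SE 0.44, 95% interval -0.60 to 1.23, limma adjusted p = 0.71), and SOL was the higher in 4 of 6 same-numbered pairs. For ENSOARG00020005847 the difference was 0.36 (SE 0.40, 95% interval -0.46 to 1.19, limma adjusted p = 0.61), but 9 of the 12 libraries held no read, so that the added 0.1 sets this value. With 1 in its place it was 0.06 (95% interval -0.34 to 0.46), with 0.01 it was 0.92 (-0.92 to 2.77), and limma's voom on recovered reads gave 0.56. Exact two-sided permutation tests over the 12 libraries, which ignore the shared numbers, gave p = 0.57 and p = 0.45. Exact sign-flip tests over the 6 same-numbered pairs gave p = 0.50 for each gene. Thus 0 of the 2 genes were called, where 16.8% of all tested genes were (limma). It was also 0 of 2 at an unadjusted p under 0.05, and 0 of 2 by limma's voom on recovered reads. ENSOARG00020005847 passed the filter on the mean level only through LL, with means of 0.0557 FPKM in SOL and 0.00865 in PM. With so few reads it could hardly be called, so nothing is read from its outcome. For ENSOARG00020013617 the interval reaches past a log2 difference of 1 in favour of SOL, so it does not show that the muscles were alike. Without SOL 3 the differences were 0.42 for ENSOARG00020013617 (limma adjusted p = 0.62) and 0.45 for ENSOARG00020005847 (limma adjusted p = 0.54). Counted over libraries, ENSOARG00020005847 had 6 reads in SOL and 1 in PM, a ratio per library total of 5.66 with an exact 95% counting interval of 0.687 to 261. The order of levels is therefore LL first for both genes, with PM and SOL not separated from each other. For ENSOARG00020005847 the reads in PM and SOL were too few to separate them.

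The residual reads of the 2 genes were not in the proportion seen in LL. This restates how far each gene fell from LL to PM and SOL. The pair was chosen by those levels, so it is a description. The intervals below cover counting error only, not the spread between libraries. In LL, 8.30 reads of ENSOARG00020013617 were counted per read of ENSOARG00020005847 (exact 95% counting interval 7.99 to 8.62). In SOL there were 719 reads of the former and 6 of the latter, or 119.8 per read (54.8 to 327.6). In PM there were 641 reads and 1 read (interval of the ratio 114.6 to 25357). At the LL proportion, the reads of ENSOARG00020013617 in PM would go with 77.3 reads of ENSOARG00020005847, and those in SOL with 86.7. PM 3, with 206 reads of ENSOARG00020013617, would have 24.8 reads of ENSOARG00020005847 and had 0. SOL 2, with 240 reads, would have 28.9 and had 0. SOL 6, which held the most reads of ENSOARG00020005847 outside LL, had 4 where the LL proportion gives 17.8. SOL 3 had the lowest ENSOARG00020013617 value of its muscle and 0 reads of ENSOARG00020005847.

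**Figure D3:**
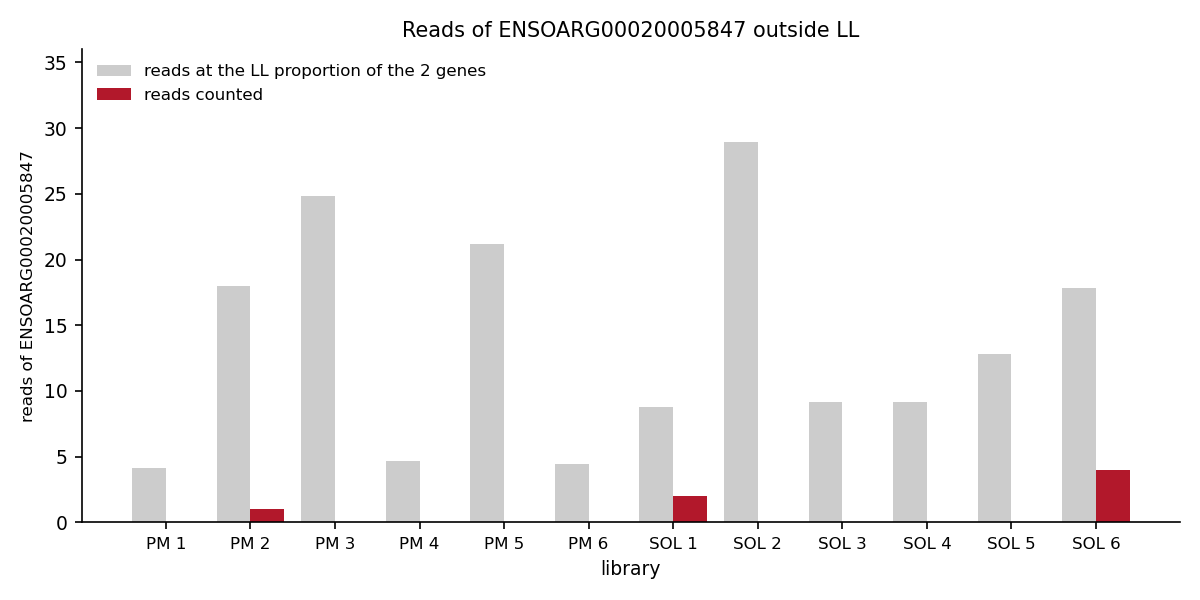
Reads of ENSOARG00020005847 in the 12 PM and SOL libraries (horizontal axis): red bars give the reads counted, grey bars the reads that would accompany the ENSOARG00020013617 reads of that library at the LL proportion. Grey bars run from 4.10 to 28.9 reads, while red bars reach at most 4.

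Within LL, where both genes were well counted, they tended to be high in the same libraries, but the relation did not pass its test. Over the 6 LL libraries, Pearson's r of log2(FPKM + 0.1) was 0.78 (exact permutation p = 0.085, 0.49 after Benjamini-Hochberg adjustment over the 8 relations computed) and Spearman's rho was 0.83 (exact permutation p = 0.058, adjusted 0.41). The smallest p that 6 libraries allow for r is 0.0028. LL 5 was highest and LL 1 lowest for both, and LL 6 was low for both. Without LL 1 and LL 6, the libraries farthest from the median of ENSOARG00020005847, r was 0.32 over 4 libraries (exact permutation p = 0.71), so the size of r rested in part on those libraries; leaving out the extremes also narrows the range. Leaving out 1 library at a time gave r from 0.63 without LL 1 to 0.93 without LL 2. Values in 1 library share its total and its RNA. Of 11620 other genes read in every LL library, 3.80% had a higher r with ENSOARG00020005847 over these libraries than ENSOARG00020013617 had, and 3.15% had a higher r with ENSOARG00020013617 than ENSOARG00020005847 had. Thus 441 and 366 genes exceeded a value of 0.78 over these 6 libraries.

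The ratio of the 2 levels ranged 1.97-fold over the LL libraries. ENSOARG00020013617 stood at 2.27 times the FPKM of ENSOARG00020005847 in LL 2 (exact 95% counting interval 2.08 to 2.48), at 3.13 in LL 4, 3.23 in LL 1, 3.71 in LL 5, 3.73 in LL 6 and 4.47 in LL 3 (4.04 to 4.94). LL 2 and LL 3 mark the ends, and the intervals cover counting error only, not the spread between samples. The SD of the log2 ratio was 0.33, against 0.46 and 0.53 for the log2(FPKM + 0.1) of ENSOARG00020005847 and ENSOARG00020013617 alone.

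**Figure D4:**
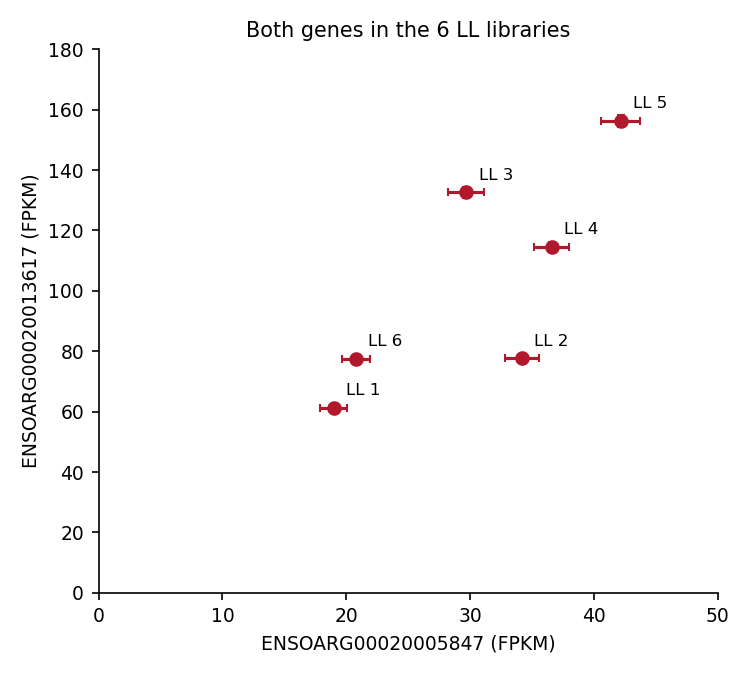
FPKM of ENSOARG00020005847 (horizontal) and ENSOARG00020013617 (vertical) in the 6 LL libraries; bars give 1 counting SD (the square root of the reads) each way. LL 1 and LL 6 lie low and LL 5 high for both genes, and LL 2 and LL 3 lie on either side, at ratios of 2.27 and 4.47.

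Both genes varied between the LL libraries somewhat more than most genes in a broad band of LL levels, 10 to 1000 FPKM. The coefficient of variation in LL was 29.9% for ENSOARG00020005847 and 35.9% for ENSOARG00020013617. Their log2 SDs exceeded those of 72.8% and 80.8% of 6258 tested genes with an LL mean of 10 to 1000 FPKM, whose median was 0.35. For ENSOARG00020013617 the log2 SD was 0.53 in LL, 0.67 in SOL and 1.19 in PM, with a 6.97-fold range in PM against 2.55-fold in LL. Whether the spread differs between muscles was not tested.

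No relation of the levels in LL with library depth passed its test, which 6 libraries can show only when strong. LL totals ran from 10216739 to 12839575 reads, and 12704 to 14552 genes had a read. In PM, 14647 to 14942 genes had a read, more than in any LL library, and in SOL 14181 to 15421. ENSOARG00020005847 had r = 0.43 with the log2 total (exact permutation p = 0.40) and -0.17 with genes detected (exact permutation p = 0.74). ENSOARG00020013617 had r = -0.14 (exact permutation p = 0.80) and -0.23 (exact permutation p = 0.66). Each adjusted p was 0.88, and the corresponding rho ran from -0.20 to 0.54. LL 3, the library with the smallest total and the fewest genes detected, was in mid-range for ENSOARG00020005847 and second highest for ENSOARG00020013617. Without that library, r of the 2 genes in LL was 0.85.

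The library numbers allow the residual level of ENSOARG00020013617 to be set against its LL level. LL and PM libraries of the same number gave r = 0.65 (exact permutation p = 0.12, adjusted 0.49) and rho = 0.77 (exact permutation p = 0.10, adjusted 0.41). Numbers 3 and 5 were the highest in LL and were also high in PM, number 1 was the lowest in both, and number 4 was high in LL and low in PM. Without LL 1 and LL 5 the value was 0.35 over 4 numbers (exact permutation p = 0.46), which also narrows the range. Leaving out 1 number at a time gave 0.50 without number 1 to 0.83 without number 4. LL and SOL gave r = -0.38 (exact permutation p = 0.47) and rho = -0.14, and SOL and PM gave r = 0.08 (exact permutation p = 0.88) and rho = -0.03. Without numbers 1 and 5, LL and SOL gave -0.92 (exact permutation p = 0.17), and without numbers 2 and 6, SOL and PM gave 0.11 (exact permutation p = 0.92). None of the 3 relations passed. ENSOARG00020005847 had reads in too few libraries outside LL for such a comparison.

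**Figure D5:**
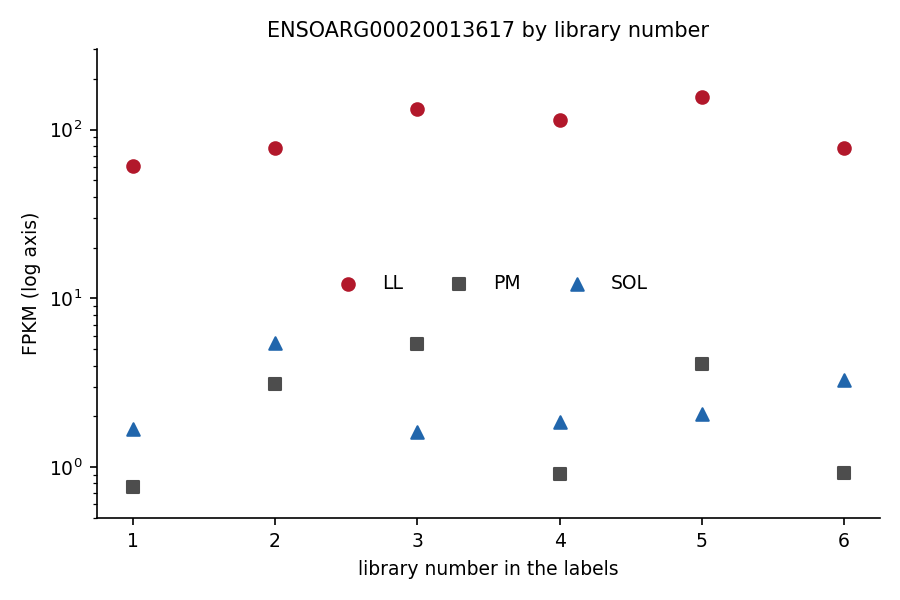
FPKM of ENSOARG00020013617 on a log axis (vertical) against the library number in the labels (horizontal) for LL, PM and SOL; each point is 1 library. PM 1, PM 4 and PM 6 lie below 1 FPKM, while all SOL libraries lie at 1.60 FPKM or more.

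The genes most like each of the pair over all 18 libraries had a much weaker contrast. Likeness was Pearson's r of log2(FPKM + 0.1) over 18 libraries among 11619 genes read in every LL library. It mostly measures the step between LL and the other muscles, which the choice of the pair fixed. The gene outside the pair most like ENSOARG00020005847 was ENSOARG00020022261 (1175 bp, r = 0.88). It ran from 361.7 to 565.6 FPKM in LL (median 507.7), from 287.7 to 339.4 in PM (median 308.4) and from 258.1 to 368.1 in SOL (median 293.8), so that LL and SOL overlapped slightly. The gene outside the pair most like ENSOARG00020013617 was ENSOARG00020018036 (965 bp, r = 0.88). It ran from 5.60 to 15.9 FPKM in LL (median 10.8), from 2.75 to 5.88 in PM (median 3.59) and from 2.61 to 3.30 in SOL (median 2.84), so that LL and PM overlapped slightly. Within LL their r with the gene they resembled was 0.44 and -0.12. The 20 most alike genes of each shared 17, or 85.0% of each list. In these lists the higher of the PM and SOL means was 15.2% to 73.4% of the LL mean, with medians of 54.1% for ENSOARG00020005847 and 58.2% for ENSOARG00020013617.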

How the data were processed

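RNA of 18 sheep muscle libraries was measured by sequencing. Per the labels' protocols, HISAT2 (2.2.1) aligned the reads and StringTie (2.2.0) assembled them. For the build, annotation and counter, the sources used here name nothing. The authors deposited FPKM without naming the unit; this was read from the values, all of which lie within 0.05 of whole reads, given a whole gene length and 1 total per library. Totals ran from 10216739 to 14747118 reads. The recovery and the model were tested on simulated data. The model's simulation gave each library independent noise and planted changes only in genes of higher mean level. It therefore does not cover likeness of same-numbered libraries, or a change in a gene near 0 in both SOL and PM. Both genes and the lists were chosen with earlier results of these data known. Of the sheep identifiers, 0 occur in the RefSeq table used, so gene lists and markers had no members.

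The 15434 genes whose mean reached 0.1 FPKM entered limma (3.58.1, under R 4.3.3) as log2(FPKM + 0.1), with the variance trend, 1 coefficient per muscle and Benjamini-Hochberg adjustment over all genes. The count test planned for counts was not needed. Correlations used exact two-sided permutation tests over all pairings (numpy 2.4.6). The levels of each gene in SOL and PM used exact two-sided permutation and sign-flip tests (scipy 1.17.1). Named beside the pair was, by rule, the gene outside the pair most alike to each. Deviations of same-numbered SOL and PM libraries correlated (r from 0.13 to 0.23, all 6 pairs above 0.1), so these numbers were taken as pairs and a replicate block was run as an alternative. Other alternatives were pseudocounts, filters, median-ratio scaling, fits on 2 muscles, voom on recovered reads and left-out libraries. Counting intervals cover counting error only. The labels do not say outright that a number is an animal; if it is not, the spread behind each p-value may be technical.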

Additional observations from a re-analysis of the deposited data

Results flagged for a closer look

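In 6 sets of 6 libraries (both genes in each muscle), the highest or lowest library was compared with the range of its set by Dixon's test, and 1 set stood out, where chance gives about 0.3. ENSOARG00020005847 in PM 2 was at 0.0519 FPKM, which is 1 read, with the other PM libraries at 0. Any set with reads in just 1 library meets this test.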

How the results depend on the processing

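The differences of LL from PM and SOL kept their direction under every alternative run. For ENSOARG00020005847 their size moved: LL against PM was 4.91 with a pseudocount of 1, 11.07 with 0.01 and 9.72 with voom on recovered reads, and LL against SOL was 4.84, 10.15 and 9.16. For ENSOARG00020013617 they moved by less than the spread between libraries. With the replicate block, SOL against PM was 0.36 (limma adjusted p = 0.64) and 0.31 (adjusted p = 0.64) for the 2 genes, so the block changed no call. Same-numbered LL libraries deviated together less firmly (lowest r 0.090 with PM and 0.086 with SOL), though each library correlated best with its own number. Median-ratio scaling moved the median log2 difference of all genes from 0.15 to 0.03 for SOL against PM and from -0.24 to -0.13 for LL against SOL; ENSOARG00020013617 then stood at 0.19 for SOL against PM. No correlation passed under any alternative. Spearman's rho had the other sign for ENSOARG00020013617 between SOL and PM (-0.029) and with the LL library total (0.029), and for ENSOARG00020005847 with genes detected (0.09).

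With 1 library left out, LL against PM ran from 7.99 to 8.22 for ENSOARG00020005847 and 5.37 to 5.90 for ENSOARG00020013617, LL against SOL from 7.63 to 7.98 and 5.16 to 5.53, and SOL against PM from 0.12 to 0.46 and 0.07 to 0.60. The correlations by number ran from 0.50 to 0.83 for LL and PM, -0.83 to -0.22 for LL and SOL and -0.31 to 0.43 for SOL and PM. Those with the LL total ran from 0.33 to 0.76 for ENSOARG00020005847 and -0.36 to 0.35 for ENSOARG00020013617, and those with genes detected from -0.35 to 0.22 and -0.36 to 0.15. The number of all genes called between LL and PM, 229, was 415 with the block, 110 in a fit on 2 muscles (47 higher in LL), 337 without LL 6, and 148, 136, 148 and 147 without PM 1, PM 2, PM 4 and PM 6. Depth limits ENSOARG00020005847 outside LL, where 7 reads were counted in 12 libraries.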
